A study of Rattus norvegicus with 12 samples.

Results

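Gene expression in the injured L5 dorsal root ganglion (DRG) of rats that had received an adeno-associated virus (AAV) vector carrying a control short hairpin RNA (shRNA) was compared with that in rats with the same injury and no vector. The 2 groups, named SNL+control shRNA and SNL, stand in 2 separate deposited tables, here the AAV table and the SNL table, which were joined by gene symbol, taking for each symbol the row with the highest mean level in its table. This gave 16621 symbols or combinations of symbols present in both tables, of 17128 present in either. Of these, 11004 had a mean of at least 1 FPKM over both groups and were counted, and 5617 lay below that level. FPKM is the number of fragments scaled to transcript length and to the library's mapped fragments. Each difference is given as the log2 ratio of FPKM + 1, SNL+control shRNA over SNL, minus its median of 0.11 over the 10721 symbols with at least 1 FPKM in both groups (the centred log2 ratio). A gene is called higher at a centred log2 ratio of 1 or more and lower at -1 or less.

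The labels describe all animals as male Sprague Dawley rats and give no age, whereas the study's methods name young rats of both sexes. In both groups the left L5 spinal nerve was tightly ligated (spinal nerve ligation, SNL) and the L5 DRG was taken on Day 14 after SNL, with 3 samples per group. The SNL+control shRNA rats had in addition received an injection into the L5 DRG, a week before SNL, of an AAV serotype 6 vector with a scrambled shRNA and the green fluorescent protein EGFP. The other AAV group, SNL+Neat1 shRNA, received the same kind of vector with an shRNA against the long noncoding RNA Neat1 and stands in the same table as SNL+control shRNA, and the uninjured side (Control) stands in the table of SNL. At the unnamed row that lies at the place of Neat1, the group labelled SNL+Neat1 shRNA was not below SNL+control shRNA (374 and 355 FPKM). The study also measured Neat1 by quantitative PCR, which was not used here, and the group is called below as the label gives it. The files hold 1 value per group, so there is no replicate check, no SD and no test, and all differences are descriptions of 1 value against another. No SNL rats with a vehicle or sham injection were analysed here. The vector, the hairpin and EGFP it carries, the injection itself, and the separate assembly and normalization of the tables therefore cannot be told apart in any value below. The 2 groups were also different rats, and the study's methods do not say whether they were operated on or sequenced together. Differences between the sets of rats and their handling cannot be told apart from these either.

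The DRG holds the cell bodies of sensory neurons, each wrapped by satellite glia, together with myelinating Schwann cells, vessels, resident macrophages and a covering of fibroblasts and meningeal cells near the root. After nerve injury, macrophages and lymphocytes gather in the ganglion. T cells recognise peptides on MHC molecules through the CD3 and receptor complex, cytotoxic T cells and natural killer (NK) cells carry granzymes, and interferon-gamma from such cells switches on MHC genes, guanylate-binding proteins and the chemokines Cxcl9, Cxcl10 and Cxcl11, which attract more T cells.

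Genes higher in SNL+control shRNA outnumbered genes lower. Of the 11004 symbols counted, 254 were higher (2.31%) and 47 were lower (0.427%), while the quartiles of all counted symbols lay at -0.16 and 0.18. The corresponding shares for SNL+Neat1 shRNA over the same SNL values were 0.903% higher and 0.338% lower. The share called higher was 4.93% among symbols with a mean of 1 to 3 FPKM and 1.5% among those with 100 FPKM and over. The filter on the mean also counts genes under 1 FPKM in 1 group through their level in the other. With at least 1 FPKM required in both groups, 180 of 10721 symbols were higher and 35 lower. Of the 672 measured members of the 36 gene lists described here, 77 were higher (11.5%) and 8 were lower (1.19%). The lists were chosen with earlier results of these data known. Their shares are therefore a description and not support for a difference from all counted symbols. At the upper limit Cdh5, Arhgdib and Tec lay just inside and Cyba, Sulf2 and Fam163a just outside, all at 1.0 when rounded. At the lower limit Calcb, Reg3a and Scrg1 lay just inside and Tyrp1, Duox2 and Atp6ap1l just outside (-0.99, -0.99 and -0.97).

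**Figure D1:**
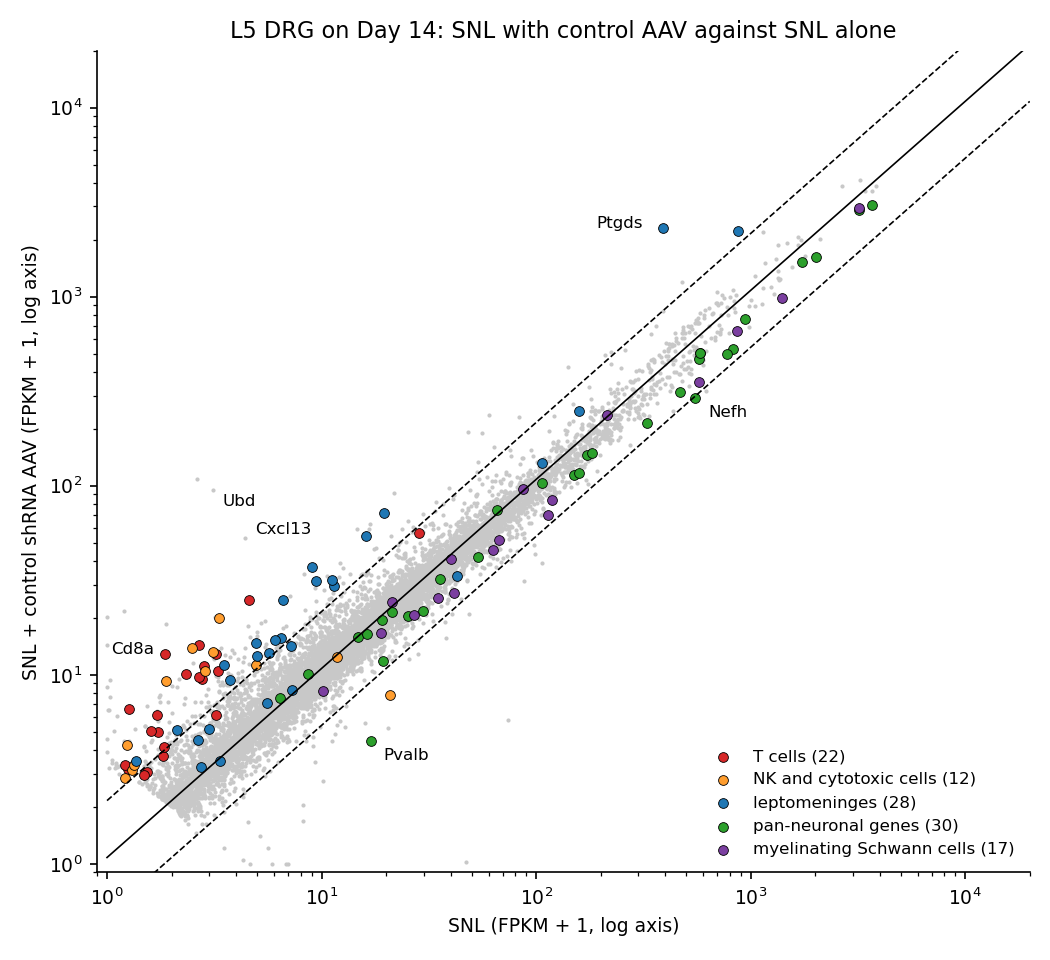
Level of the 11004 counted symbols in SNL (x axis) and SNL+control shRNA (y axis), both as FPKM + 1 on log axes. The solid line marks the median ratio and the dashed lines the limits for higher and lower, grey dots are all symbols, and coloured dots are members of 5 gene lists. T cell, cytotoxic and leptomeningeal genes lie mostly above the upper dashed line, and neuronal and myelin genes mostly between the solid and the lower dashed line.

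Genes of T lymphocytes made up the group with the highest median. Of 22 measured T cell genes, 16 were higher and 0 lower, 21 lay above 0, and the median was 1.55, beside 0.00 over all counted symbols, of which 50.7% lay above 0. Among those higher, Cd247, Cd5, Cd8a, Cd8b, Cd27, Zap70, Skap1 and Icos were under 1 FPKM in SNL. They passed the filter only through SNL+control shRNA, so the count depends in part on the filter. Cd8a, the co-receptor of cytotoxic T cells, had 0.276 FPKM in Control, 0.867 in SNL, 11.9 in SNL+control shRNA and 3.08 in SNL+Neat1 shRNA, a centred log2 ratio of 2.67 between the middle groups. Cd3e, a signalling chain of the T cell receptor complex, had 0.117, 1.69, 13.4 and 3.40 FPKM in the same order (2.31). For both genes SNL+control shRNA was the highest of the 4 groups and Control the lowest.

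The other chains of the complex lay alike, with Cd3d at 1.33 and 9.07 FPKM and Cd3g at 2.23 and 11.9 in SNL and SNL+control shRNA (2.0 and 1.89). The kinases that start receptor signalling, Lck and Zap70, were likewise at their highest in SNL+control shRNA. Lck had 1.83, 10.2 and 3.17 FPKM in SNL, SNL+control shRNA and SNL+Neat1 shRNA, and Zap70 had 0.715, 5.10 and 1.32. Cd4, the co-receptor of helper T cells that rat macrophages also carry, was already at 27.5 FPKM in SNL and reached 55.2 in SNL+control shRNA (0.87, inside the limits). Foxp3, which marks regulatory T cells, had 0.380 and 1.23 FPKM, a mean under 1. Thy1, which neurons express in large amounts, was the 1 measured member below 0, at 581 and 502 FPKM (-0.32). Over the same list the median of SNL+Neat1 shRNA over SNL was 0.26. In whole-tissue RNA, more cells of a type and more RNA per cell cannot be told apart.

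Cytotoxic genes lay close to the T cell genes, with 10 of 12 measured members higher, 1 lower and a median of 1.43. Among those higher, Gzmk, Nkg7, Klrd1, Klrb1a and Tbx21 were under 1 FPKM in SNL and passed the filter only through SNL+control shRNA. Ccl5, a chemokine made by activated T and NK cells, had 2.03, 2.33, 18.9 and 5.84 FPKM in Control, SNL, SNL+control shRNA and SNL+Neat1 shRNA (2.47 over SNL). The cathepsin Ctsw of cytotoxic cells (1.49 and 12.8 FPKM in SNL and SNL+control shRNA), the granule protein gene Nkg7 (0.873 and 8.27) and the granzyme Gzmm (2.11 and 12.1) lay at 2.36, 2.20 and 1.96. The NK receptors Klrk1 and Klrd1 had 9.51 and 3.24 FPKM in SNL+control shRNA, against 1.86 and 0.244 in SNL. Gzmb, the granzyme with the highest level after SNL, was an exception, at 0.337, 10.8, 11.4 and 4.62 FPKM in the 4 groups (-0.04). Gzma was listed at or near 0 in all 4 groups.

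Of 8 measured B cell genes, 3 were higher and 0 lower (median 0.48). All 3, Mzb1, Cd79b and Blk (0.487 and 2.28 FPKM), were under 1 FPKM in SNL and passed the filter only through SNL+control shRNA. The measured members with at least 1 FPKM in SNL all lay inside the limits, so this count depends on the filter. Mzb1, a chaperone of antibody-secreting cells, had 0.0740 FPKM in SNL, 4.01 in SNL+control shRNA and 0.608 in SNL+Neat1 shRNA (2.11), and Cd79b, part of the B cell receptor, had 0.0902, 2.22 and 0.271 (1.45). Fcrl2, an Fc receptor-like gene placed on this list, differed from these, with 3.77, 6.04 and 11.8 FPKM (0.45), highest in SNL+Neat1 shRNA. Whether it reports B cells in the rat ganglion was not tested. Ms4a1 stayed under a mean of 1 FPKM, with 0.764 FPKM in SNL+control shRNA. In a list put together after values were seen, 3 of 7 GIMAP genes, GTPases of lymphocytes, were higher, led by Gimap4 (1.89 and 10.4 FPKM) and Gimap7 (2.14 and 11.1), and all 7 lay above 0. In another such list, 7 of 21 genes shared by most leukocytes were higher (median 0.88), among them Ptprc, the pan-leukocyte phosphatase CD45, at 5.85 and 17.2 FPKM, and the integrin chain Itgal at 3.08 and 11.1. The median of the leukocyte list was 0.15 in SNL+Neat1 shRNA over SNL.

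**Figure D2:**
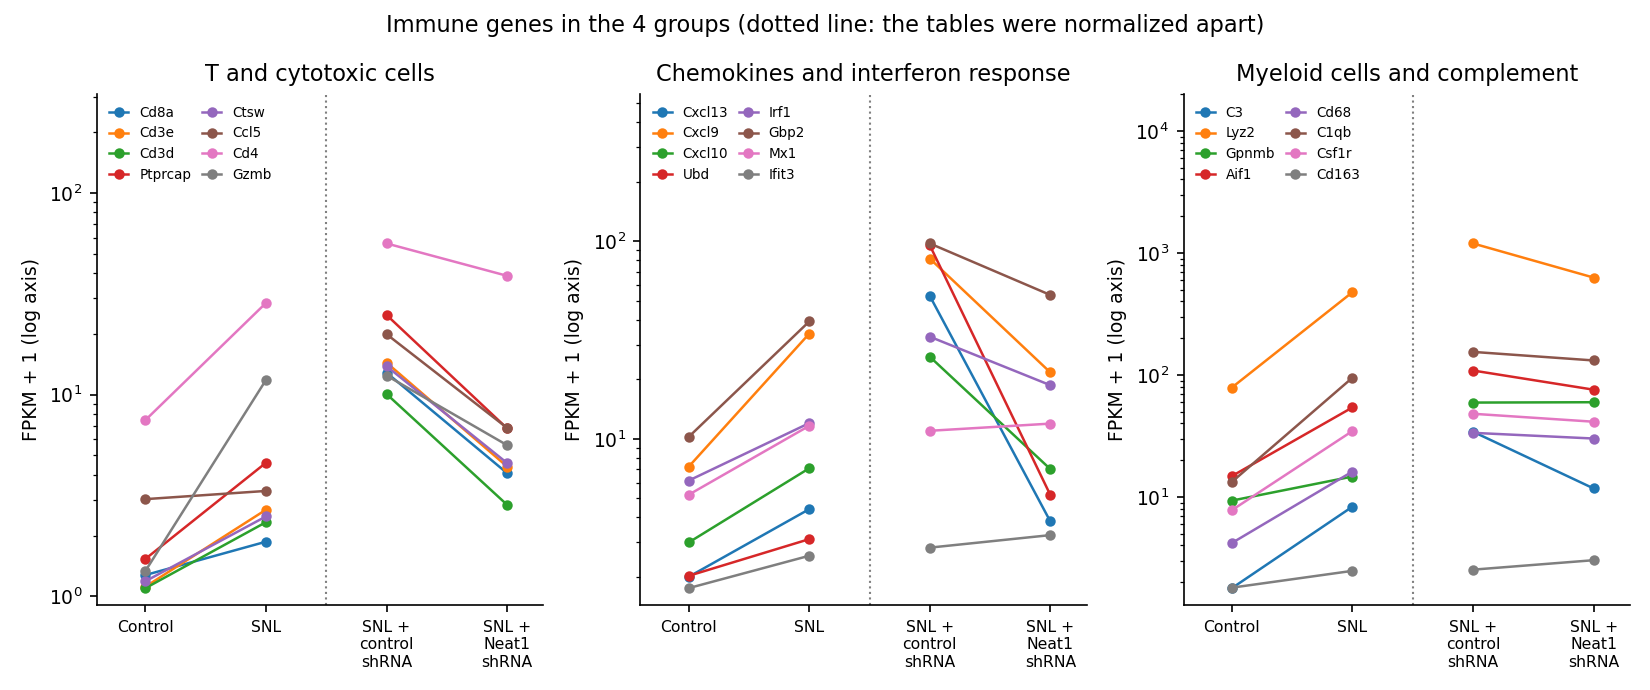
FPKM + 1 on a log axis of 24 genes in the 4 groups, 1 deposited value per group and no error bars. The dotted line separates the tables, which were normalized apart. Most lymphocyte genes and the chemokines are highest in SNL+control shRNA, while Gzmb, Mx1, Ifit3 and Cd163 differ little between SNL and SNL+control shRNA.

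By FPKM before centring, 21 of 28 measured chemokines and receptors were highest in SNL+control shRNA, 5 in SNL+Neat1 shRNA and 2 in SNL. The share over all counted symbols is not given, so this count is not read as a trait of chemokines. Among lists of general cell functions it ranged widely. It was 24 of 34 for ribosomal protein genes, 15 of 19 for unfolded protein response genes and 1 of 29 for oxidative phosphorylation genes. Of the 28 measured chemokines and receptors, 11 were higher and 1 lower, with a median of 0.90 and 0.15 in SNL+Neat1 shRNA over SNL. Among those higher, Ccl4, Cxcl11, Ccr7, Cxcr3 and Cxcr6 were under 1 FPKM in SNL and passed the filter only through SNL+control shRNA. With at least 1 FPKM in both groups the median was 0.55. Cxcl13, which attracts B cells and follicular T cells, had 1.0, 3.40, 51.9 and 2.81 FPKM in Control, SNL, SNL+control shRNA and SNL+Neat1 shRNA, the highest ratio of the list (3.48). The T cell attractants Cxcl9 (33.0 and 80.7 FPKM in SNL and SNL+control shRNA), Cxcl10 (6.09 and 25) and Cxcl11 (0.717 and 5.39) lay at 1.15, 1.77 and 1.79. In SNL+Neat1 shRNA they had 20.7, 6.02 and 1.0 FPKM, so that for Cxcl10 and Cxcl11 that group lay near SNL and for Cxcl9 below it.

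Their common receptor Cxcr3 had 0.764 FPKM in SNL and 6.83 in SNL+control shRNA (2.04). Ccr7, the receptor of naive T cells and migrating dendritic cells, had 0.743 and 6.65 FPKM (2.02), and its ligand Ccl19 had 2.29 and 8.79 (1.46). Ccl21, the other ligand of Ccr7, had 1.56, 5.52, 8.06 and 25.8 FPKM in the 4 groups (0.36) and was thus highest in SNL+Neat1 shRNA. Chemokines of monocytes and macrophages were mixed. Ccl4 was higher, with 0.481 FPKM in SNL and 3.20 in SNL+control shRNA (1.39), and Ccl3 had 2.90 and 7.0 (0.93). Ccl2 stood at 29.5 and 34.9 FPKM (0.13), Ccl7 at 6.80 and 14.7 (0.90), and the receptor Cx3cr1 at 9.38 and 13.5 (0.37). The only member called lower was Xcl1, a chemokine of cytotoxic lymphocytes, with 0.567 FPKM in Control, 19.7 in SNL, 6.81 in SNL+control shRNA and 3.23 in SNL+Neat1 shRNA (-1.52). The row of Xcl1 does not cover the same stretch in both tables, as given with the highest and lowest genes.

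Genes switched on by interferons were higher in part. Of 40 measured members, 11 were higher and 0 lower, 33 lay above 0 and the median was 0.52, against 0.32 in SNL+Neat1 shRNA over SNL. Irf1, a transcription factor induced by interferon-gamma, had 5.14, 11, 31.9 and 17.7 FPKM in the 4 groups (1.34 between SNL and SNL+control shRNA), and Irf8, a factor of myeloid and lymphoid cells, had 1.89, 11.2, 37.8 and 16.1 (1.56). The interferon-inducible GTPases Igtp (16.6 and 45.2 FPKM), Irgm (4.51 and 13.5), Gbp2 (38.2 and 96.5), Gbp5 (8.43 and 20.4) and Ifi47 (10.1 and 30.4) lay between 1.07 and 1.38. Gbp4, another guanylate-binding protein of the list, lay below 0, with 8.37 and 6.56 FPKM (-0.42). The membrane protein Bst2, which tethers budding virus particles, had 52.9 and 133 FPKM (1.2), and Socs1, an inhibitor of interferon receptor signalling, had 2.62 and 7.84 (1.18). Zbp1, a sensor of Z-form nucleic acid, had 5.49 FPKM in SNL+control shRNA and 2 rows over 1 stretch in the SNL table, at 0.0229 and 1.69 FPKM in SNL. Its centred log2 ratio was 2.56 with the first row, which the joining rule took, and 1.15 with both rows summed. The last of the 11, Ubd, is given with the highest genes.

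Several genes best known as targets of type I interferon lay inside the limits. Mx1 had 10.6 FPKM in SNL and 9.97 in SNL+control shRNA (-0.19), Ifit3 had 1.56 and 1.81 (0.03), Ifit2 had 5.21 and 6.19 (0.10), Isg15 had 12 and 16.5 (0.32) and Irf7 had 7.91 and 10.3 (0.23). Rsad2 had 2.16 and 0.814 FPKM (-0.91). Other such genes, also inside the limits, lay further above 0. Dhx58 had 1.80 and 4.40 FPKM (0.84), Usp18 3.47 and 7.14 (0.76), Oasl2 5.06 and 9.01 (0.61) and Ifi44 17.0 and 26.8 (0.52). Of the interferons themselves, Ifnb1 was listed at 0 in all 4 groups and Ifng at 0, 0, 0.211 and 0.0357 FPKM. Rps6, a ribosomal protein gene that every cell uses, was likewise listed at 0, 0.0410, 0.0228 and 0 FPKM, so a value at or near 0 in these files does not show that a gene was not expressed. Of 14 measured sensors of foreign nucleic acid and their adaptors, all lay above 0 and 0 passed the limit (median 0.40), with the endosomal receptors Tlr7 at 1.27 and 2.42 FPKM, Tlr3 at 3.02 and 4.78, and Tlr9 under a mean of 1 FPKM.

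The start regions of the interferon response genes were searched, after their values were seen, for 2 sequence motifs on both strands in the 250 bases before each gene's start, as given by RefSeq for the build GRCr8. The motif GAAANNGAAA, a core of the interferon-stimulated response element (ISRE) bound by factors of type I interferon signalling and by IRF proteins, was in 6 of 10 regions of higher genes, in 11 of 21 of the genes inside the limits and in 3.41% of 33469 rat regions. The motif TTCNNNGAA, the gamma-activated sequence (GAS) of the interferon-gamma response, was in 7 of 10, in 2 of 21 and in 7.67%. Both motifs stood in 4 of 10 higher genes (Igtp, Irgm, Bst2 and Socs1), in 1 of 21 others (Parp14) and in 0.43% of all regions. Regions were found for 10 of the 11 higher genes and 21 of the other 29 members. Igtp and Irgm are shown because a GAS and an ISRE follow each other at the same distance in both, with the motifs in capitals and the last base next to the start (chr10:42874797-42875046 on the plus strand and chr10:33742579-33742828 on the minus strand).
Igtp: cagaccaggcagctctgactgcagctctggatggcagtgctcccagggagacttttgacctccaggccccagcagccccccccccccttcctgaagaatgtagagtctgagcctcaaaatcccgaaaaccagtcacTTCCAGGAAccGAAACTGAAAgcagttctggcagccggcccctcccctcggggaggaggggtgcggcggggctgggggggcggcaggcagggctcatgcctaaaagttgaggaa
Irgm: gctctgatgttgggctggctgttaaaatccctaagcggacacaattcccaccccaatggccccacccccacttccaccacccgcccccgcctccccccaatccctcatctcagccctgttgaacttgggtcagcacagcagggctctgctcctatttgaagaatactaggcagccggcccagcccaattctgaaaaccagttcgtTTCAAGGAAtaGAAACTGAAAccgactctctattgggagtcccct

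In Igtp the GAS lay at bases 114 to 106 and the ISRE at 103 to 94 before the start, and in Irgm at 45 to 37 and 34 to 25. Bst2, in which both motifs overlap, and Irf1, with a GAS alone, are shown as the other arrangements among the higher genes (chr16:18254968-18255217 on the minus strand and chr10:38417685-38417934 on the plus strand of GRCr8). The GAS of Bst2 lay at 137 to 129, overlapping the first of 2 ISRE matches at 131 to 122 and 125 to 116, and that of Irf1 at 142 to 134.
Bst2: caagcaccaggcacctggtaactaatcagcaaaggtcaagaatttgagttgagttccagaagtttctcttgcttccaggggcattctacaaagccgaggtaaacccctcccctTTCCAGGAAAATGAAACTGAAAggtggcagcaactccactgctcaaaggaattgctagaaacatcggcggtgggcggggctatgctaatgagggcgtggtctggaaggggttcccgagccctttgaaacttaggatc
Irf1: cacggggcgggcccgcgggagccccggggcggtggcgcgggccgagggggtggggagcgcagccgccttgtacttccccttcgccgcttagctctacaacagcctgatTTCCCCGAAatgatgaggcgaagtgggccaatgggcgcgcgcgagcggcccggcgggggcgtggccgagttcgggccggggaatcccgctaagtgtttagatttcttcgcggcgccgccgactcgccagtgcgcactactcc
Gbp2 held an ISRE alone, in the reverse orientation at 31 to 22, while Ubd held neither motif in this window. A match is a description of the letters, and binding was not measured.

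Genes that present antigens lay above 0, with few past the limit. All 8 measured MHC class II genes lay between 0.47 and 1.09 (median 0.80), and 1 of 8 passed the limit. The class II chains RT1-Bb and RT1-Ba had 18.2, 221, 511 and 205 FPKM and 24.1, 258, 524 and 231 FPKM in Control, SNL, SNL+control shRNA and SNL+Neat1 shRNA. Cd74, the invariant chain, had 103, 1144, 2185 and 1096 FPKM, so that in each of these genes both SNL and SNL+Neat1 shRNA lay far above Control and below SNL+control shRNA. The median of SNL+Neat1 shRNA over SNL was -0.29. Of 10 measured genes of class I presentation, 2 were higher and all 10 lay above 0 (median 0.79): the interferon-inducible proteasome subunits Psmb9 (15.7 and 57.9 FPKM in SNL and SNL+control shRNA, 1.71) and Psmb8 (12.6 and 32.9, 1.2). B2m, the light chain of class I molecules, had 391 and 839 FPKM (0.99).

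Macrophage genes, whose summed level was 426 FPKM in Control and 1431 in SNL, lay above 0 in most cases. Of 26 measured members, 2 were higher, 0 lower and 22 above 0 (median 0.65). Lyz2, lysozyme, had 77.9, 476, 1195 and 627 FPKM in the 4 groups (1.22), and Gpnmb, a glycoprotein of lipid-laden macrophages, had 8.33, 13.7, 58.3 and 58.7 (1.90). Gpnmb thus had the same level in both AAV groups, whereas Lyz2 was lower in SNL+Neat1 shRNA. Inside the limits were Aif1 (53.2 and 108 FPKM in SNL and SNL+control shRNA), Cd68 (15.1 and 32.5), C1qb (93.9 and 153) and the growth factor receptor Csf1r (33.7 and 47.0), while Cd163, a receptor of resident macrophages, had 1.48 and 1.53.

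Complement and cytokine genes followed. Of 15 measured complement genes 1 was higher (median 0.62). C3, the central component, had 0.788 FPKM in Control, 7.32 in SNL, 33.2 in SNL+control shRNA and 10.7 in SNL+Neat1 shRNA (1.93). Of 42 measured interleukins, TNF family members and receptors, 8 were higher and 0 lower (median 0.32). They included Tnfrsf14, a co-stimulatory receptor of lymphocytes (2.18 and 19.3 FPKM, 2.57), lymphotoxin Ltb (3.98 and 15, 1.58), Il21r (2.68 and 9.16, 1.35) and Il2rg, the common chain of lymphocyte cytokine receptors (7.39 and 21.0, 1.28). The row of Tnfrsf14 does not cover the same stretch in both tables. Il1b had 3.25 and 8.73 FPKM (1.09), and Il6 had 2.10 and 1.32 (-0.53). Of 18 inflammasome and NF-kB genes, 2 were higher and 16 lay above 0 (median 0.68). Dendritic cell genes (2 of 11 higher, median 0.68) were led by Ccr7 and by Clec9a, a receptor of cross-presenting dendritic cells, at 1.10 and 3.79 FPKM (1.08). Of 7 measured genes of granulocytes and mast cells 1 was higher and 1 lower (median -0.01), and the neutrophil genes S100a8 (3.02 and 3.29 FPKM) and S100a9 (4.15 and 3.45) lay near 0.

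Another group, outside the immune system, stood high in both AAV groups. In a list of leptomeningeal genes (of the inner covering of roots and spinal cord) that was put together after some of its members had been seen among the highest values, 18 of 28 measured genes were higher, 0 lower, and the median was 1.21, with 0.75 in SNL+Neat1 shRNA over SNL. Because the list was built on these values, its count is a description only. Ptgds, the prostaglandin D synthase of the meninges, had 325 FPKM in Control, 388 in SNL, 2317 in SNL+control shRNA and 1514 in SNL+Neat1 shRNA (2.46). Mgp, matrix Gla protein, had 264, 875, 2220 and 1928 FPKM (1.23). For both genes the AAV groups lay above both groups of the other table.

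The solute carriers Slc6a13 (8.03, 36.1 and 24.5 FPKM in SNL, SNL+control shRNA and SNL+Neat1 shRNA), Slc6a20 (8.46, 30.5 and 15.4) and Slc13a4 (10.5, 28.6 and 21.0) lay at 1.93, 1.62 and 1.26. The tight junction gene Cldn11 had 18.6, 71.1 and 54.4 FPKM (1.77), and the gap junction gene Gjb2 had 5.64, 24.0 and 14.0 (1.80). Transcription factors of meningeal cells lay between 1.08 and 1.46, namely Zic1 (5.49 and 14.7 FPKM in SNL and SNL+control shRNA), Zic2 (3.93 and 13.6), Foxc1 (3.98 and 11.6), Foxc2 (4.71 and 12) and Foxd1 (5.08 and 14.2). Not every member was high: Crabp2 had 105 and 131 FPKM (0.21), Tbx18 4.59 and 6.13 (0.24) and the epithelial cadherin Cdh1 41.7 and 32.5 (-0.46). The summed level of the list was 839 FPKM in Control, 1700 in SNL, 5352 in SNL+control shRNA and 4132 in SNL+Neat1 shRNA, and its part in the other differences was not tested.

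Fibroblast and matrix genes lay closer to 0, with 2 of 29 measured members higher, 23 above 0 and a median of 0.22. Collagen Col1a1 had 428 and 465 FPKM in SNL and SNL+control shRNA (0.01), decorin Dcn had 607 and 767 (0.22) and periostin Postn 14.0 and 28.4 (0.86). Sfrp2, a secreted Wnt antagonist, had 2.77 and 8.94 FPKM (1.29) and stood at 49.5 in SNL+Neat1 shRNA. Of 23 measured genes of vessels 2 were higher (median 0.22): Icam1, an adhesion molecule for leukocytes (9.88 and 24.2 FPKM, 1.10), and the endothelial cadherin Cdh5 (15.3 and 34.3, 1.0). Vcam1, another adhesion molecule for leukocytes, had 2.82 and 7.2 (0.99), and Pecam1, found on all endothelium, had 8.21 and 10.6 (0.22). Of genes outside the lists, named after their values were seen, the monocarboxylate transporter family member Slc16a11 (54.8, 188 and 152 FPKM in SNL, SNL+control shRNA and SNL+Neat1 shRNA), the growth factor binding protein Igfbp5 (141, 422 and 316) and the matrix protein Nov (15.9, 61.6 and 60.9) were likewise high in both AAV groups.

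Genes of neurons lay on the other side of 0. Of 30 measured pan-neuronal and large-fibre genes, 27 lay below 0, 2 were lower and 0 higher, and the median was -0.40, beside -0.30 in SNL+Neat1 shRNA over SNL. Neuronal markers were abundant in all groups, with the neuronal tubulin Tubb3 at 2403, 3689, 3050 and 3205 FPKM in Control, SNL, SNL+control shRNA and SNL+Neat1 shRNA. The neurofilaments of large fibres had 4662, 828, 530 and 667 FPKM (Nefl, -0.75) and 2155, 552, 290 and 369 (Nefh, -1.03) in the same order. For both, Control lay far above the 3 injured groups, and SNL+control shRNA was the lowest of them. Nefh lay inside the limit without centring (-0.92). Pvalb, the calcium buffer of proprioceptors, had 265, 16.0, 3.47 and 3.07 FPKM (-2.03), and another calcium-binding protein, Calb2, named after its value was seen, had 77.6, 7.22, 0.682 and 0.903 (-2.40). Both were alike in the AAV groups, and the row of Pvalb does not cover the same stretch in both tables.

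Voltage-gated channel genes lay below 0 in 32 of 38 cases, and 0 passed the limit in either direction (median -0.30). The sodium channels Scn1a (2.49 and 1.06 FPKM in SNL and SNL+control shRNA, -0.87) and Scn8a (8.17 and 5.01, -0.72) and the potassium channel Kcna1 (53.6 and 33.0, -0.80) were among the lowest, and Scn11a of nociceptors lay highest (1.06 and 2.19, 0.51). Nociceptor peptides and receptors were spread about 0 (median 0.05, 11 of 21 above 0). Calcb, a form of calcitonin gene-related peptide, had 106, 8.79, 4.28 and 4.84 FPKM in the 4 groups (-1.0, just past the limit and inside it with each of the 3 other centrings), whereas Calca, which encodes the other form, had 25.2 FPKM in SNL and 31.5 in SNL+control shRNA (0.20). The row of Calcb does not cover the same stretch in both tables. Substance P precursor Tac1 had 46.8 and 30.2 FPKM (-0.73), and the purine receptor P2rx3 had 61.4 and 97.2 (0.54).

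Genes induced by axon injury lay mostly somewhat below 0, with 22 of 32 measured members below it and 10 above. Atf3, a transcription factor of injured neurons, had 13.1 FPKM in Control, 269 in SNL, 264 in SNL+control shRNA and 224 in SNL+Neat1 shRNA (-0.14), and Jun had 45.5, 193, 194 and 194 (-0.11). The peptides galanin (Gal, 1042 and 892 FPKM in SNL and SNL+control shRNA) and Vip (152 and 141) lay at -0.33 and -0.22. Sprr1a, an outgrowth gene, had 47.4 and 56.8 FPKM (0.15), and Csrp3 had 166 and 124 (-0.53). Of the 32 measured members 2 were lower and 0 higher (median -0.21), and both were secreted lectins of the Reg family, Reg3b (97.4 and 42.3 FPKM, -1.29) and Reg3a (4.73 and 2.09, -1.0, likewise inside the limit with the 3 other centrings). For Reg3b and Reg3a alike, the row does not cover the same stretch in both tables. Of 22 immediate early genes 1 was higher, Egr1, at 24.4, 63.8 and 60.1 FPKM in SNL and both AAV groups (1.24), whereas Fos had 57.8 and 67.3 in SNL and SNL+control shRNA (0.11).

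**Figure D3:**
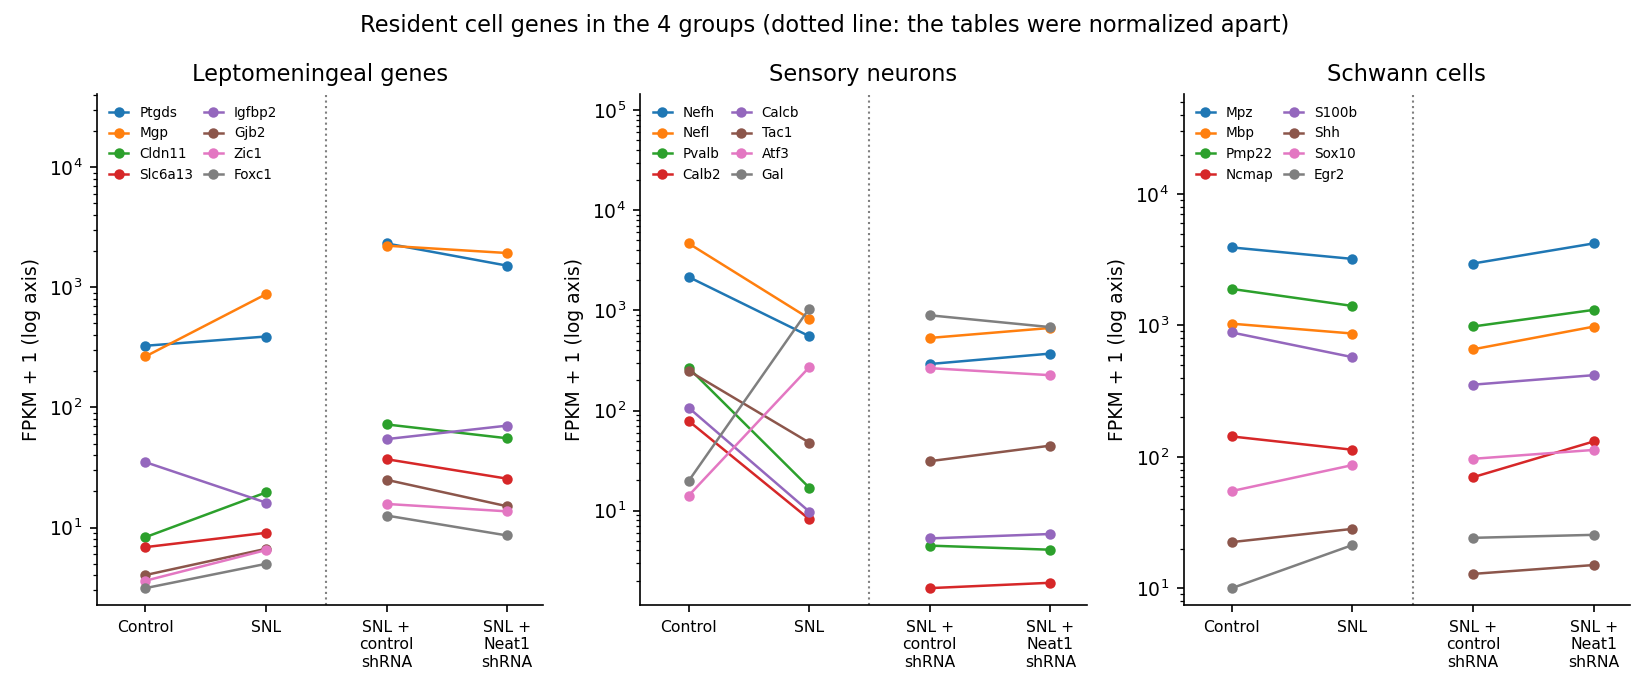
FPKM + 1 on a log axis of 24 genes of the leptomeninges, sensory neurons and Schwann cells in the 4 groups, 1 deposited value per group and no error bars. The dotted line separates the tables, which were normalized apart. Ptgds, Mgp and the other leptomeningeal genes are higher in both AAV groups than in SNL, Pvalb and Calb2 are lower in both, and the myelin genes Mbp, Pmp22 and Ncmap are lowest in SNL+control shRNA. The rows of Calcb, Pvalb, Shh, Zic1 and some other genes shown do not cover the same stretch in both tables.

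Myelin genes had the lowest median of the lists. Of 17 measured genes of myelinating Schwann cells, 14 lay below 0, 0 passed the limit and the median was -0.50, whereas the median of SNL+Neat1 shRNA over SNL was 0.10. Myelin basic protein Mbp had 1030, 867, 657 and 978 FPKM in Control, SNL, SNL+control shRNA and SNL+Neat1 shRNA (-0.51), and Pmp22 had 1895, 1406, 981 and 1312 (-0.63). Ncmap, a small membrane protein of peripheral myelin, had 142, 112, 68.9 and 130 FPKM (-0.81). In each of these 3 genes SNL+control shRNA was the lowest of the 4 groups. The transcription factors of the lineage did not follow, with Sox10 at 85.5 and 95.5 FPKM in SNL and SNL+control shRNA (0.05) and Egr2 at 20.3 and 23.2 (0.07).

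Pmp2, a lipid-binding protein of peripheral myelin that was on no list, was among the 15 lowest genes, with 182, 86.9, 30.3 and 54.7 FPKM in the 4 groups (-1.60). Of 13 measured genes of repair and non-myelinating Schwann cells, 10 lay below 0 and 1 was lower (median -0.23): Shh, a morphogen made by injured Schwann cells, with 21.4, 27.3, 11.8 and 14.0 FPKM (-1.25). The row of Shh does not cover the same stretch in both tables. Satellite glia genes were spread about 0 (median 0.10, 11 of 17 above 0), and the 1 member higher was the gap junction gene Gja1, also found in meningeal cells and fibroblasts, at 8.01 and 18.7 FPKM in SNL and SNL+control shRNA (1.02). Fabp7, a fatty acid carrier of satellite glia, had 27.9 and 27.8 FPKM (-0.12). The lower values of neuronal and myelin genes stand beside higher summed levels of the leptomeningeal, macrophage (1431 and 2445 FPKM) and class II (2051 and 4001 FPKM) lists, whose part in them was not tested. These sums are of FPKM before centring and rest largely on a few abundant genes. Examples are Ptgds (388 and 2317 FPKM), Mgp (875 and 2220), Lyz2 (476 and 1195) and Cd74 (1144 and 2185). The sums are not measures of cell number.

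**Figure D4:**
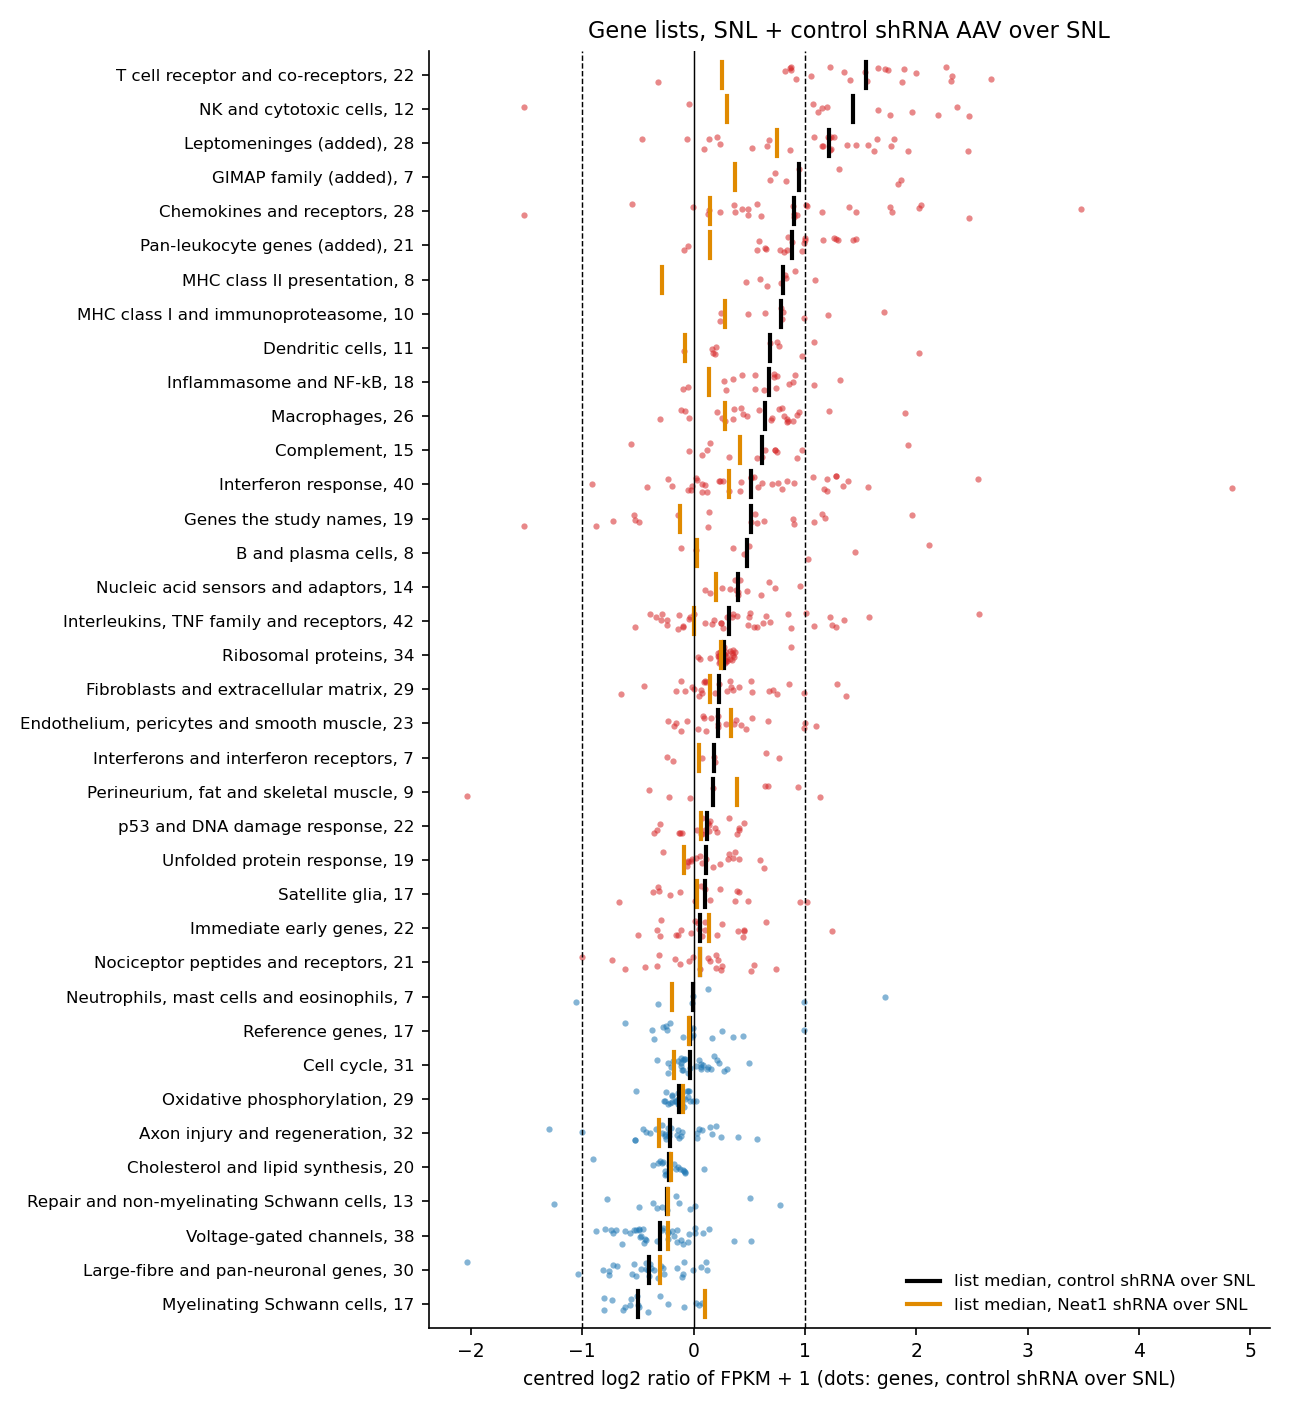
Centred log2 ratio of FPKM + 1, SNL+control shRNA over SNL, of the measured members of gene lists with 7 or more of them, 1 dot per gene. Black bars are list medians, orange bars the medians of SNL+Neat1 shRNA over SNL, the number after each list is its measured members, and dashed lines are the limits for higher and lower. Immune and leptomeningeal lists lie at the top, with a median of 1.55 for T cells, and neuronal and myelin lists at the bottom, with -0.50 for myelinating Schwann cells.

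Lists of general cell functions stayed near 0. Cell cycle genes had a median of -0.03 (0 of 31 called), p53 and DNA damage genes 0.12 (0 of 22) and unfolded protein response genes 0.11 (0 of 19). Ribosomal protein genes lay above 0 in 34 of 34 cases with a median of 0.27, and 0.25 in SNL+Neat1 shRNA over SNL. Oxidative phosphorylation genes lay below 0 in 28 of 29 cases (median -0.13) and genes of cholesterol and lipid synthesis in 19 of 20 (median -0.22). Common reference genes had a median of -0.03 over 17 members. Of the sex-linked genes, the Y-linked Ddx3y had 1.80 FPKM in Control, 0.970 in SNL, 0.337 in SNL+control shRNA and 0.427 in SNL+Neat1 shRNA, and Ddx3x had 49.0, 49.5, 50.6 and 44.5.

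Part of the most extreme values came from rows whose stretch of genome differed between the tables, since each table rests on its own assembly of transcripts. Among the 15 highest genes (1.96 to 5.26), 4 had a row of another extent in the AAV table, as did 8 of the 15 lowest (-5.63 to -1.23). Over all counted symbols this share was 13.2%, and it was 20.9% of those higher and 38.3% of those lower. Fam109b, the highest, had 1.61 FPKM in SNL and 107 and 112 in the AAV groups, and its row ran from 123558648 to 123563282 on chromosome 7 of rn5 in the SNL table and to 123571638 in the AAV table. Ccdc103 (0.201 FPKM in SNL, 20.8 and 21.1 in the AAV groups) began at 90756614 on chromosome 10 in the SNL table and at 90705710 in the other. Tor2a (0.889, 17.6 and 16.9), which is not among these 4, had 1 row in the SNL table and 2 in the AAV table. In Fam109b, Ccdc103 and Tor2a both AAV groups were alike. Tnfrsf14, given with the cytokine genes, and Ubd were the others of the 4.

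Ubd, a ubiquitin-like protein induced by interferon-gamma and TNF, was the next highest (4.83) with 1.02, 2.10, 94.4 and 4.19 FPKM in Control, SNL, SNL+control shRNA and SNL+Neat1 shRNA. Its row ran from 3917596 to 3940107 on chromosome 20 of rn5 in the SNL table and from 3917780 to 3919728 in the AAV table, and within the latter table, over 1 and the same stretch, the AAV groups still stood at 94.4 and 4.19. Xcl1, for which the SNL row ran from 88079604 to 88194236 on chromosome 13 and the AAV row only from 88079579 to 88085583, is the case among the chemokines. Mtf2 (72.9, 4.73 and 4.65 FPKM in SNL and the AAV groups) and LOC100360933 (46.1, 0.0270 and 0.0467) were among the lowest and also had shorter rows in the AAV table. Dgka and Lypla1, named after their values were seen, were listed at 0 in SNL and at 19.1 and 13.4 FPKM in SNL+control shRNA, with 2 rows in the SNL table. Summed over all rows of each symbol, Dgka lay at 0.35 and Lypla1 at 0.02.

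With only the rows of matching extent, 203 symbols were higher and 29 lower of 9553 counted. Of the 15 highest genes, 11 kept the same extent, among them Cxcl13, Cd8a, Ccl5, Ptgds, Ctsw, Ptprcap, Cd3e, Gzmm and Plac8, and the row of RGD1309808 (1.51 and 10.5 FPKM). Of the lowest, those with matching rows were Zfp689, Pmp2, Ciz1, Ate1, Lect1, Apold1 and Tma16, and for Zfp689 and Ciz1 the SNL table held 2 rows. Lect1, the cartilage protein chondromodulin, had 101, 37.1, 14.6 and 23.1 FPKM in the 4 groups (-1.40). Of the other genes named here, the rows of Bst2, Calcb, Clec9a, Gimap4, Isg15, Kcna1, Ms4a1, Ptgs1, Pvalb, Reg3a, Reg3b, Scn1a, Shh, Sprr1a, Tubb3, Zbp1 and Zic1 also differed in extent.

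**Figure D5:**
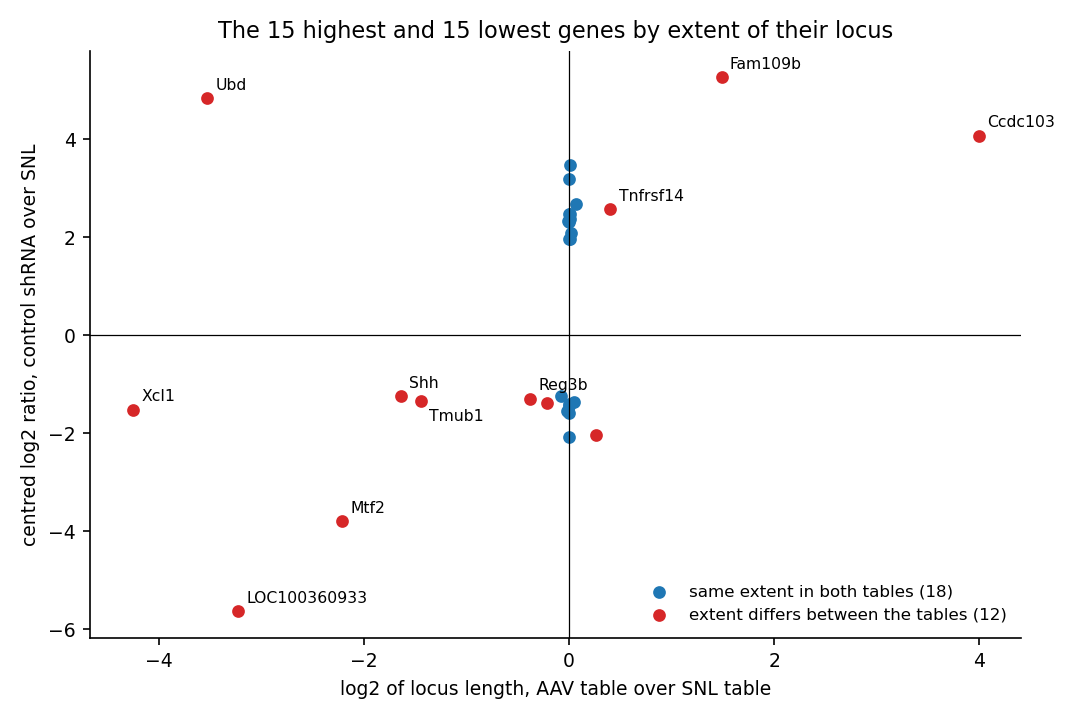
Centred log2 ratio of the 15 highest and 15 lowest genes (y axis) against the log2 ratio of the length of their row, AAV table over SNL table (x axis), with 1 dot per gene. Genes with the same extent in both tables (blue) lie along 0 on the x axis, and the red dots, including Fam109b, Ubd and Ccdc103 at the top and LOC100360933 and Mtf2 at the bottom, had another extent.

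Of 19 genes that the study names, most of them for inflammation, pain or excitability and Plac8, Bcl2a1 and Pthlh as genes with little predicted interaction with Neat1, 4 were higher and 1 lower. Plac8 had 6.04, 20.7, 90.2 and 46.8 FPKM in Control, SNL, SNL+control shRNA and SNL+Neat1 shRNA (1.96), and the survival gene Bcl2a1 had 1.65, 11.5, 29.6 and 14.1 (1.18). Cxcl9 and Il1b were also higher, and Xcl1 lower. The inflammasome sensor Nlrp3 had 1.91 and 3.89 FPKM in SNL and SNL+control shRNA (0.63), Lif, an injury cytokine, 1.73 and 3.39 (0.57), and Ptgs1, a cyclooxygenase, 4.93 and 8.36 (0.55). Kcna2, a potassium channel of axons, had 12.7 and 9.50 FPKM (-0.49). No row bears the name Neat1. An unnamed row at its place next to Frmd8, on chromosome 1 of rn5 from 228133861 to 228137360 in the AAV table, had 141, 294, 355 and 374 FPKM in the 4 groups, a centred log2 ratio of 0.16 between SNL and SNL+control shRNA. A lower level of Neat1 in the group labelled SNL+Neat1 shRNA was thus not seen at this row.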

How the data were processed

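RNA of the L5 DRG was sequenced as stranded polyadenylated libraries with paired reads of 75 bp. According to the study's methods, the reads were aligned to rn5 with RefSeq genes and FPKM were computed with Cufflinks, which the submitters' processing notes also name. The authors deposited 2 tables, each with 1 FPKM value per group over its 3 samples, so the spread between animals and the read depth behind a value are unknown, and intervals cannot be given. The tables, of 28578 and 28745 rows, were assembled and normalized separately. Their columns of log2 fold changes, test statistics, p-values and q-values hold the authors' own comparisons and were not used.

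Symbols were joined with Python 3.11.15, pandas 2.3.3 and numpy 2.4.6. Ratios use a pseudocount of 1 FPKM, which understates the difference of low genes. Centring removes a shift of 0.11. A row has the same extent when its rn5 positions overlap and its length differs by under 10%. Rows with several symbols (308 combinations) match no list, and 23 symbols per table that a spreadsheet turned into dates match nothing. The steps were tested on simulated data.

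The comparison, its 36 gene lists and the naming rule were chosen with earlier results of these data known, and 3 further lists (leptomeninges, leukocytes, GIMAP) after values were seen. By the rule, the text names the 15 highest and 15 lowest genes (10 FPKM or more in 1 group and above 0 in the other), up to 4 members past the limit per list or else the 2 most abundant, and all members of short lists. Other genes were chosen after their values were seen. Alternatives were 2 pseudocounts, 3 filters, 3 centrings, 4 choices of rows and 2 other limits. Gene starts and their sequences come from RefSeq for GRCr8, and coordinates of the files are rn5. Some genes are not reported here.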

Additional observations from a re-analysis of the deposited data

Results flagged for a closer look

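Rows without a gene name were kept out of the comparison above. Of 4532 such loci matched between the tables by an overlap of at least 50% of their length, 2797 had a mean of at least 1 FPKM, and 73 of these were higher and 91 lower in SNL+control shRNA than in SNL. Lower calls thus outnumbered higher ones among unnamed loci, unlike among the 11004 counted symbols (254 higher and 47 lower). The 5 highest with at least 1000 bp and 10 FPKM that lay outside named rows are given because they carry signal that no comparison of named genes used. The highest lay 10514 bp from Enam on chromosome 14 of rn5, from 21086946 to 21093947, with 0.538, 0.625, 37.5 and 4.66 FPKM in Control, SNL, SNL+control shRNA and SNL+Neat1 shRNA (centred log2 ratio 4.46). In the RefSeq table for GRCr8 the neighbours of Enam are Jchain, the joining chain of antibodies, and Ambn. A row 36368 bp from Prss1 on chromosome 4, from 135605594 to 135620878, had 0.603, 3.49, 32.1 and 7.82 FPKM (2.77), and Prss1 has a C-region gene segment as a neighbour in GRCr8. A row 11714 bp from Dad1 on chromosome 15, from 36623450 to 36667373, had 0.218, 3.16, 23.4 and 5.78 FPKM (2.44), and Dad1 has a V gene segment as a neighbour in GRCr8. These 3 rows were lower in SNL+Neat1 shRNA than in SNL+control shRNA, as was Cd3e. All 5 rows were picked by their ratio of SNL+control shRNA over SNL, so their place above SNL follows from the choice. Whether they belong to lymphocyte genes was not tested.

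The other 2 rows were alike in both AAV groups. The row 13050 bp from Map3k9 on chromosome 6, from 113678198 to 113725574, had 1.71, 3.37, 32.5 and 27.3 FPKM (2.83). The row 109 bp from Ercc8 on chromosome 2, from 58406797 to 58518858, had 1.19, 0.922, 13.3 and 12.4 FPKM (2.79). No gene name is given to any of these rows.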

How the results depend on the processing

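No paired analysis was possible because the files hold 1 value per group, although the labels number 3 samples in each. Leaving out a sample was not possible for the same reason. Against the 254 symbols higher and 47 lower, a pseudocount of 0.1 gave 419 and 78, a mean of at least 5 FPKM gave 148 and 31, a limit of 1.5-fold gave 721 and 255, and a limit of 4-fold gave 31 and 13. Rows of the same extent gave 203 higher and 29 lower. At least 1 FPKM in both groups, which drops genes counted through 1 group alone, gave 180 higher and 35 lower. All other counts stayed within 1.5 times. Among the joined symbols, higher calls outnumbered lower ones under every alternative tried, with 70.5% to 91.4% of the calls. Among the unnamed loci they did not. With the 1.5-fold and 4-fold limits that share was 73.9% and 70.5%, beside 84.4% in the main comparison.

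The T cell median of 1.55 was 2.21 with a pseudocount of 0.1, 1.87 with 0.5, 1.29 without a filter and 1.87 at a mean of 5 FPKM. The cytotoxic median of 1.43 was 2.35, 1.80, 1.10 and 1.77 under the same settings, 1.77 with at least 1 FPKM in both groups and 1.87 with only rows of test status OK. The chemokine median of 0.90 was 0.49 with no filter, 0.61 at a mean of 5 FPKM and 0.55 with at least 1 FPKM in both groups. The dendritic cell median of 0.68 was 0.20 with only symbols of 1 row, and the GIMAP median of 0.95 was 1.2 with a pseudocount of 0.1 and 1.84 at a mean of 5 FPKM. The median of perineurium, fat and skeletal muscle genes (0.18, 9 genes) was -0.10 with no filter and 0.64 with rows of the same extent. The other 435 of 453 values of list medians moved by less than 0.25.

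Of the genes called, Nefh, Calcb, Reg3a and Lcn2 came inside the limits without centring (-0.92, -0.89, -0.89 and -0.95) and with centring on reference genes, as did Calcb and Reg3a (-0.97 each) with centring on symbols with at least 10 FPKM, Spock2 without centring (-0.96), and Clec9a (0.93), Dgka (0.35) and Lypla1 (0.02) when all rows of a symbol were summed. No named gene changed sign while called. The causes were not tested. Read depth is unknown and 1 value per group sets no limit on error.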
